A study of Mus musculus with 6 samples.

Results

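The genes described here are 8 inhibitors of RAS signalling, measured in mouse gastric corpus organoids with and without Erbb2 overexpression. They are the Sprouty genes Spry1, Spry2 and Spry4, the Spred genes Spred1, Spred2 and Spred3, and Rasa1 and Nf1, which encode GTPase-activating proteins. They were taken by name, and 8 of 8 were found among 25528 genes and had enough reads to be tested, as did 12593 genes in all. Organoids are epithelial structures grown in 3-dimensional culture, and the corpus is the main body of the stomach, where acid is made. The Erbb2_OE_Corpus group carried Erbb2 overexpression and the Ctrl_Corpus group was transduced with an empty vector, with 3 libraries of polyadenylated RNA each, numbered 1 to 3 in both. The labels do not give the promoter or species of the Erbb2 construct, and do not say whether replicates are separate cultures, lines or animals.

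Sprouty and Spred proteins restrain the pathway that runs from receptor tyrosine kinases such as ERBB2 through RAS, RAF, MEK and ERK. Sprouty genes are classical negative-feedback genes, since ERK signalling raises their transcription and the proteins then act against the pathway. Sprouty proteins bind adaptors such as GRB2, and also the ubiquitin ligase CBL. Spred proteins carry an EVH1 domain and a Sprouty-related domain, and bring neurofibromin, the product of Nf1, to the membrane, where it speeds the conversion of active RAS to its inactive form. Rasa1 encodes p120 RasGAP, which does the same after docking to phosphorylated receptors.

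The comparison asks whether the inhibitors differ when the receptor is overexpressed. Erbb2 stood at 342, 349 and 285 CPM in replicates 1, 2 and 3 of the overexpressing organoids, against 125, 164 and 128 CPM in the controls (CPM, counts per 1000000 scaled counts), so that the groups did not overlap. Its log2 fold change was 1.23 in both edgeR fits, with an adjusted p of 0.640 for the group alone and 3.55e-05 with the replicate number as a block. None of the 8 inhibitors passed the threshold of an adjusted p under 0.05 in edgeR's quasi-likelihood test, whether the group was fitted alone or the replicate number was added as a blocking term. The pairs of Spry1, Spry2 and Rasa1 went both ways. Spry4, Spred1, Spred2, Spred3 and Nf1 were above the paired control in 3 of 3 pairs, as were 19.6% of all genes tested, without passing. For Spred1 and Nf1 the difference was small. Their log2 fold changes without the block were both 0.11, close in size to the -0.09 of Spry2.

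Library totals ran from 18735853 to 22767455 counts, and the first principal component, with 57.8% of the variance, placed the replicate 3 libraries at one end, with scores of 50.1 for the overexpressing organoids and 38.8 for the controls. Control replicate 2 stood equally far out at the other end, at -50.1, and the remaining 3 libraries lay between -20.6 and 1.71. Control replicate 2 was also the lowest library for Spry4, Spred2 and Spred3 and the highest for Spry1 and Spry2. The epithelial markers Epcam, Cdh1, Krt8, Krt18, Krt19 and Cldn18 summed to 8161 to 8511 CPM in overexpressing organoids and 6859 to 8489 CPM in controls. Cldn18 was at 702, 752 and 1168 CPM in overexpressing replicates 1, 2 and 3, against 307, 318 and 920 CPM in controls. Epcam was at 672 to 763 CPM in overexpressing organoids and 704 to 850 CPM in controls. With the block, 0 of these 6 markers passed. Of the corpus lineage markers, Atp4b of acid-secreting parietal cells was at 0 counts in all libraries. Atp4a, also of parietal cells, was at 2.87 to 5.41 CPM in overexpressing organoids and 3.20 to 4.62 CPM in controls. Lipf of chief cells was at no more than 2 counts. Pgc of chief cells was at 52.0 to 69.8 CPM in overexpressing organoids and 53.2 to 97.3 CPM in controls. The 4 markers of mucus-secreting pit cells summed to 85.8 to 194 CPM in overexpressing organoids and 31.5 to 74.5 CPM in controls. Tff1 made up nearly all of this sum, while Muc5ac, Gkn1 and Gkn2 each reached at most 4.83 CPM in any library. With the block, 0 of the 3 tested pit markers passed. Tff2 of mucous neck cells was at 59.2 to 175 CPM and rose with the block, against 34.2 to 92.5 CPM in controls. The 2 enteroendocrine markers summed to at most 3.51 CPM in overexpressing organoids and 1.18 CPM in controls. The part of these cell types in the values of the 8 genes was not tested. Of 8 fibroblast markers, 5 were at 0 in all libraries (Col1a2, Dcn, Lum, Pdgfrb and Thy1), and the list summed to 1.35 to 1.70 CPM in overexpressing organoids and 0.695 to 1.42 CPM in controls. The 6 endothelial markers summed to 0.566 to 10.2 CPM in overexpressing organoids and 1.07 to 1.97 CPM in controls, with Emcn at 0 throughout and Tek at 8.95 CPM in overexpressing replicate 3. Immune markers summed to 18.6 to 73.4 CPM in overexpressing organoids and 20.3 to 53.9 CPM in controls. Nearly all of this was Cd68, while Adgre1 was at 0. The 4 neural and glial markers summed to 0.874 to 2.36 CPM in overexpressing organoids and 1.38 to 1.95 CPM in controls, with Sox10 and Elavl4 at 0.

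Promoter sequence was looked up because ETS and AP-1 factors are the usual nuclear effectors of ERK. RefSeq windows on GRCm38.p6 were used for 7 of the 8 genes, with Spry4 not analysed here. The 250 bases before each start were searched on both strands for the ETS sequence GGAAGT and the AP-1 site TGANTCA. Shorter ETS matches, such as GGAA alone, were not counted. GGAAGT occurred in 2 of 7 windows, those of Spred2 and Nf1, and in 19.7% of all 32851 promoter windows of that length. The AP-1 site occurred in 0 of 7, against 6.75% of all windows, so that no ETS match in these 7 overlapped one. Windows are given 5′ to 3′ along each gene's own strand, with GGAAGT matches on either strand in capitals. Those of Spred2 and Spred3 are shown because these genes came nearest to the threshold in the fit with the block. Those of Spry1 and Spry2 are shown beside them, as their fold changes were close to 0.
Spry1, chr3:37639697-37639946, plus strand: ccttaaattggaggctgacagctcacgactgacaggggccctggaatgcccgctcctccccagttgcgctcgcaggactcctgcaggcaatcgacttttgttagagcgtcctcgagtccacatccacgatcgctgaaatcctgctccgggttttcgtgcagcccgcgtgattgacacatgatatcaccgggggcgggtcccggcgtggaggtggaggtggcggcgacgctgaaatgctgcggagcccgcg
Spry2, chr14:105896820-105897069, minus strand: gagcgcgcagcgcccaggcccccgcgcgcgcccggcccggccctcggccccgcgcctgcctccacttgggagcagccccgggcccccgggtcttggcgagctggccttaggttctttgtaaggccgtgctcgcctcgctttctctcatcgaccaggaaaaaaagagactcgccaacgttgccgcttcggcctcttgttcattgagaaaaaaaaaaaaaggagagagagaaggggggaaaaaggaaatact
Spred2, chr11:19924192-19924441, plus strand: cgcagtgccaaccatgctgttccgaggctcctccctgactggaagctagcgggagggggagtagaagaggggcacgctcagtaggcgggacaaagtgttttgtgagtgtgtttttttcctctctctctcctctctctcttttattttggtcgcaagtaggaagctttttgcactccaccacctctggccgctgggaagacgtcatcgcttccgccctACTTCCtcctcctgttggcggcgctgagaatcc
Spred3, chr7:29168648-29168897, minus strand: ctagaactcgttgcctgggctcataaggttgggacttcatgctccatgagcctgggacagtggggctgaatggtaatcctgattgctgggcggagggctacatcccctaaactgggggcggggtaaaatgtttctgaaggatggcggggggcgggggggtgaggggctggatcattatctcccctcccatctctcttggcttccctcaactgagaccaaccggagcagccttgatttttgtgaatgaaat

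The single GGAAGT match among these 4 windows is in Spred2, where ACTTCC is that sequence read on the other strand. A match in letters is a description and does not show that a factor binds there.

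Levels of different genes were compared per kilobase of exon, with exon lengths from the GENCODE M21 annotation, because longer transcripts yield more reads. Spred2 was the most abundant of the 8 in both groups, at 19.5 ± 0.799 CPM per kb in overexpressing organoids and 16.4 ± 1.93 CPM per kb in controls (SD, n = 3 each). Its lowest library, at 14.8 CPM per kb, exceeded the highest library of Spred1, at 12.3. Spred1, Spry2, Spry1 and Rasa1 followed between 6.45 and 12.3 CPM per kb over all libraries, and neighbours in that order overlapped. Spred3 and Nf1 came next with ranges that overlapped each other, at 1.17 to 5.91 and 1.60 to 2.76 CPM per kb, and every library of Rasa1 was above those of Spred3. Spry4 was the least abundant, at 0.588 ± 0.130 CPM per kb in overexpressing organoids and 0.282 ± 0.262 CPM per kb in controls, below every library of Nf1.

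**Figure D1:**
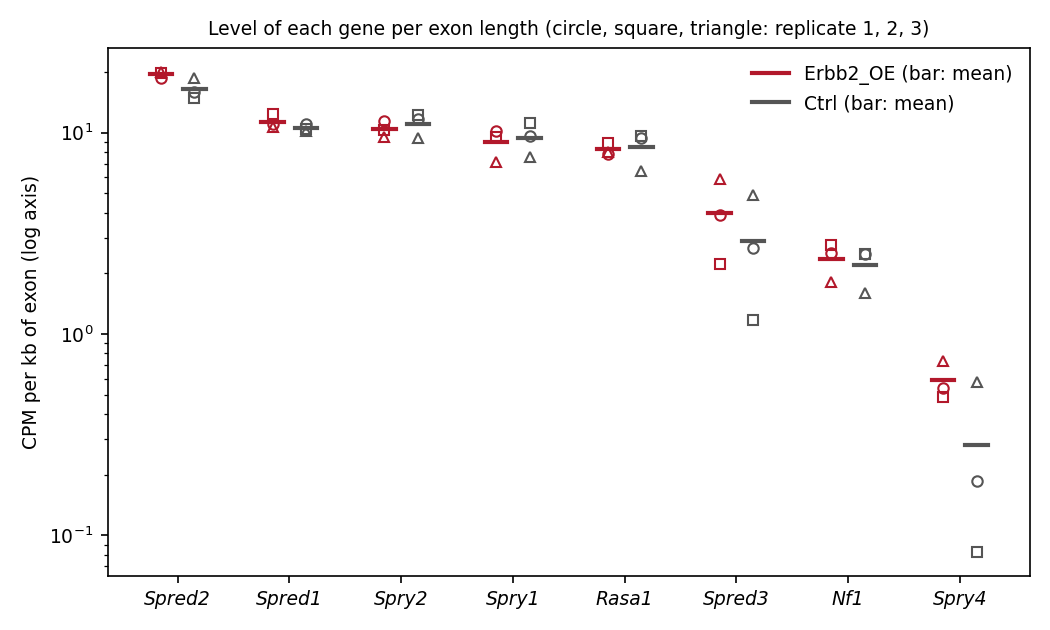
Level of each gene in CPM per kilobase of exon on a log axis, for overexpressing (red, left) and control (grey, right) libraries; circles, squares and triangles are replicates 1, 2 and 3, and bars are group means. Spred2 is highest, at 14.8 to 20.1 CPM per kb, and Spry4 lowest, at 0.0829 to 0.735 CPM per kb.

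Within the Sprouty family, Spry2 supplied 50.7% to 54.8% of the summed level per kilobase in overexpressing organoids and 52.1% to 54.4% in controls. Spry4 supplied 2.40% to 4.23% in overexpressing organoids and 0.354% to 3.30% in controls. Within the Spred family, Spred2 supplied 54.8% to 57.7% in overexpressing organoids and 53.8% to 56.1% in controls, while Spred3 supplied 6.46% to 16.1% in overexpressing organoids and 4.42% to 14.5% in controls. Each family had the same leading member in every library, and the share of its least abundant member varied most for its size.

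Spry1 and Spry2 were more abundant here than Spry4, and neither passed the test in either fit. Spry1 was at 29.7, 27.7 and 20.7 CPM in replicates 1, 2 and 3 of the overexpressing organoids, against 27.9, 32.3 and 22.0 CPM in the controls. Both replicate 3 libraries were lowest, and the groups overlapped. It had a log2 fold change of -0.07 (standard error 0.20) and a 95% interval of -0.54 to 0.39 without a block. With the block, the interval was -0.31 to 0.17. Spry2 was at 23.8, 21.6 and 19.9 CPM in overexpressing organoids, against 24.3, 25.5 and 19.6 CPM in controls, so that the groups again overlapped. Its log2 fold change was -0.09 with an interval of -0.44 to 0.27, or -0.33 to 0.17 with the block. Fold changes above 1.13 for either gene lay outside the intervals of the fit with the block. Of Spry1's exon length, 24.4% is overlapped by an unclassified transcript on the opposite strand, Gm42922, which had 1 to 7 counts in any library.

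Spry4, an inhibitor studied mostly downstream of FGF receptors, had few reads. It had 59, 41 and 84 counts in overexpressing replicates 1, 2 and 3, against 19, 7 and 64 counts in the controls. As CPM this was 2.57, 2.32 and 3.50 in overexpressing organoids, against 0.881, 0.394 and 2.75 in controls. Each overexpressing library was above its paired control, but control replicate 3 was above overexpressing replicates 1 and 2, so that the groups overlapped. Without a block, edgeR gave a log2 fold change of 1.01 (standard error 0.59), an interval of -0.38 to 2.39 and an adjusted p of 0.9997. With the block it was 1.03, with standard error 0.38 and an interval of 0.21 to 1.85 (adjusted p = 0.185). The pairs gave log2 ratios of 1.55, 2.56 and 0.34 for replicates 1, 2 and 3. Without replicate 3 the blocked fit gave 1.90 and passed the threshold (adjusted p = 0.00424), while without replicate 1 it gave 0.89 (adjusted p = 0.472) and without replicate 2 it gave 0.78 (adjusted p = 0.544). In bulk RNA, a change in the share of cells that express a gene and a change in its RNA per cell cannot be told apart.

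**Figure D2:**
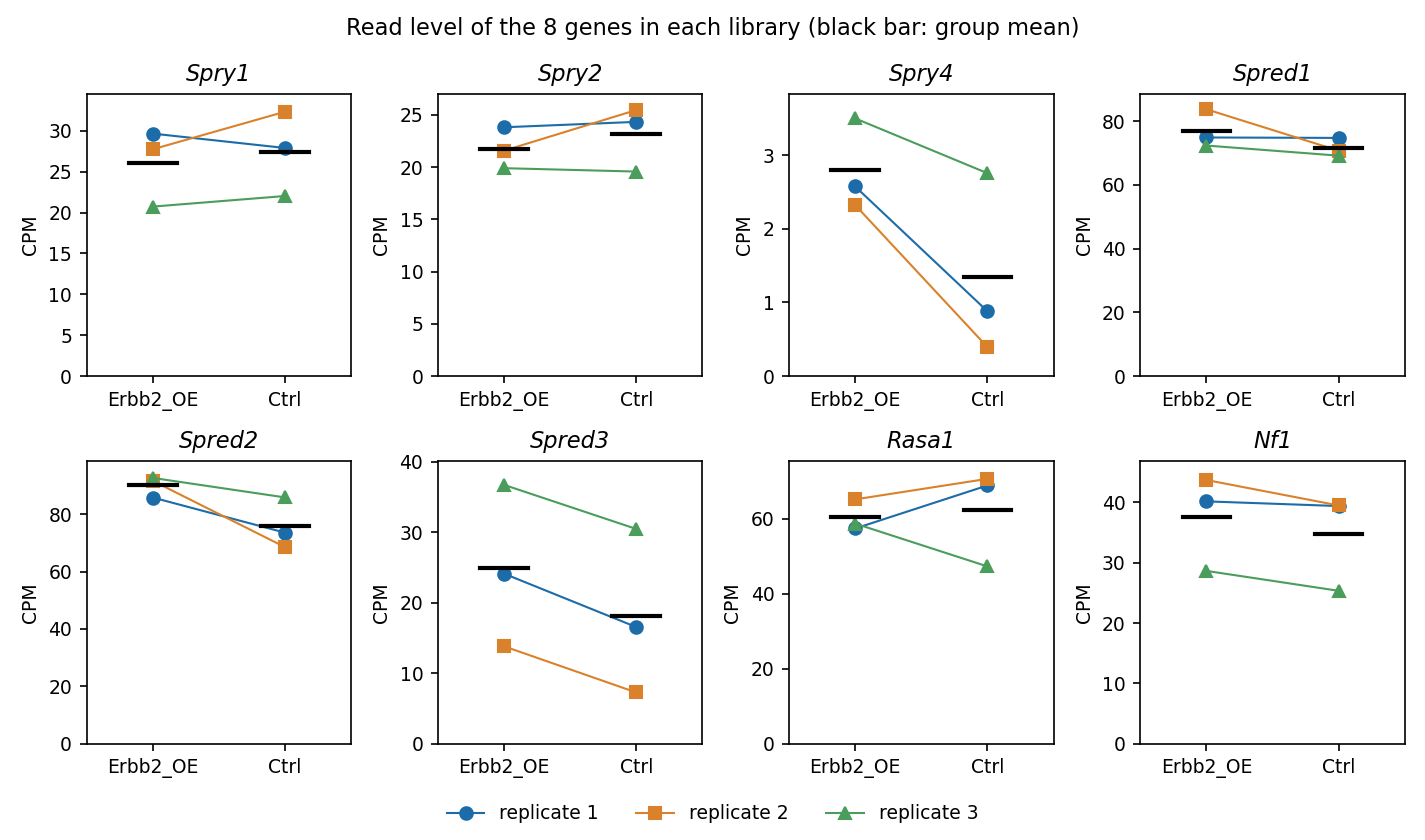
CPM of each of the 8 genes in overexpressing (left) and control (right) libraries, with lines joining libraries of the same replicate number and black bars at the group means; each vertical axis starts at 0. Spry4, Spred1, Spred2, Spred3 and Nf1 are lower in the control in all 3 pairs, by very little in replicate 1 of Spred1 and Nf1, while the pairs of Spry1, Spry2 and Rasa1 go both ways.

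Spred1, whose human counterpart is mutated in Legius syndrome, passed in neither fit. It stood at 74.8, 83.7 and 72.3 CPM in overexpressing organoids, against 74.7, 70.7 and 69.1 CPM in controls. The groups overlapped, and the gap between the pairs was largest in replicate 2. The log2 fold change was 0.11 with an interval of -0.14 to 0.35, or -0.08 to 0.29 with the block (edgeR, adjusted p = 0.608 with the block).

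Spred2, a further EVH1-domain member, was at 85.8, 91.6 and 92.6 CPM in overexpressing organoids, against 73.5, 68.5 and 85.8 CPM in controls. Overexpressing replicate 1 and control replicate 3 were nearly equal, at 85.79 and 85.83 CPM, and this is where the groups overlapped. The mean was 90.0 ± 3.69 CPM in overexpressing organoids and 76.0 ± 8.91 CPM in controls (SD, n = 3 each). In edgeR the log2 fold change was 0.24 (standard error 0.12, adjusted p = 0.9997), and 0.25 with the block (standard error 0.09, adjusted p = 0.169). Its pairs gave log2 ratios of 0.22, 0.42 and 0.11. It passed with the block when replicate 3 was left out, at 0.33 (adjusted p = 0.0181), but not without replicate 1, at 0.26 (adjusted p = 0.333), or replicate 2, at 0.18 (adjusted p = 0.693).

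Spred3, the Spred protein known to lack a functional KIT-binding domain, came nearest to the threshold in the fit with the block. In edgeR without the block, Spred2 had the smallest unadjusted p of these inhibitors, at 0.0738, and Spred3 was at 0.426. Spred3 was at 24.1, 13.8 and 36.7 CPM in overexpressing organoids, against 16.5, 7.27 and 30.5 CPM in controls. Levels differed more between replicate numbers than between the groups, with both replicate 3 libraries highest and both replicate 2 libraries lowest, and the groups overlapped widely. Without a block it had a log2 fold change of 0.46 (standard error 0.54) and an interval of -0.83 to 1.74. With the block it was 0.52, with standard error 0.14 and an interval of 0.22 to 0.82 (edgeR, adjusted p = 0.0683), a fold of 1.43. The pairs gave 0.54, 0.93 and 0.27.

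The call for Spred3 depended on the form of the blocked test. It passed with the block in DESeq2 (log2 fold change 0.56, adjusted p = 0.0432), in the earlier form of edgeR's quasi-likelihood fit (0.55, adjusted p = 0.0460) and without replicate 3 (0.70, adjusted p = 0.00167). It did not pass without replicate 1 (0.54, adjusted p = 0.206), without replicate 2 (0.41, adjusted p = 0.302) or in limma voom (0.46, adjusted p = 0.0998). In all it passed in 3 of 13 blocked fits, with adjusted p between 0.00167 and 0.302. Without the block the fold change moved from library to library. It was 0.06 without overexpressing replicate 3, 0.09 without control replicate 2 and 1.07 without control replicate 3. Mitochondrial transcripts held 8.01%, 11.1% and 6.33% of counts in overexpressing replicates 1, 2 and 3 and 8.14%, 10.6% and 8.05% in controls, so that the libraries with the least Spred3 had the largest mitochondrial share. Cd68, at 34.8, 17.3 and 72.8 CPM in overexpressing organoids and 22.7, 18.3 and 52.9 CPM in controls, was likewise highest in both replicate 3 libraries. The part of either in the level of Spred3 was not tested. The protein-coding gene Ggn overlaps 3.25% of Spred3's exon length on the opposite strand and had 44 to 114 counts.

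**Figure D3:**
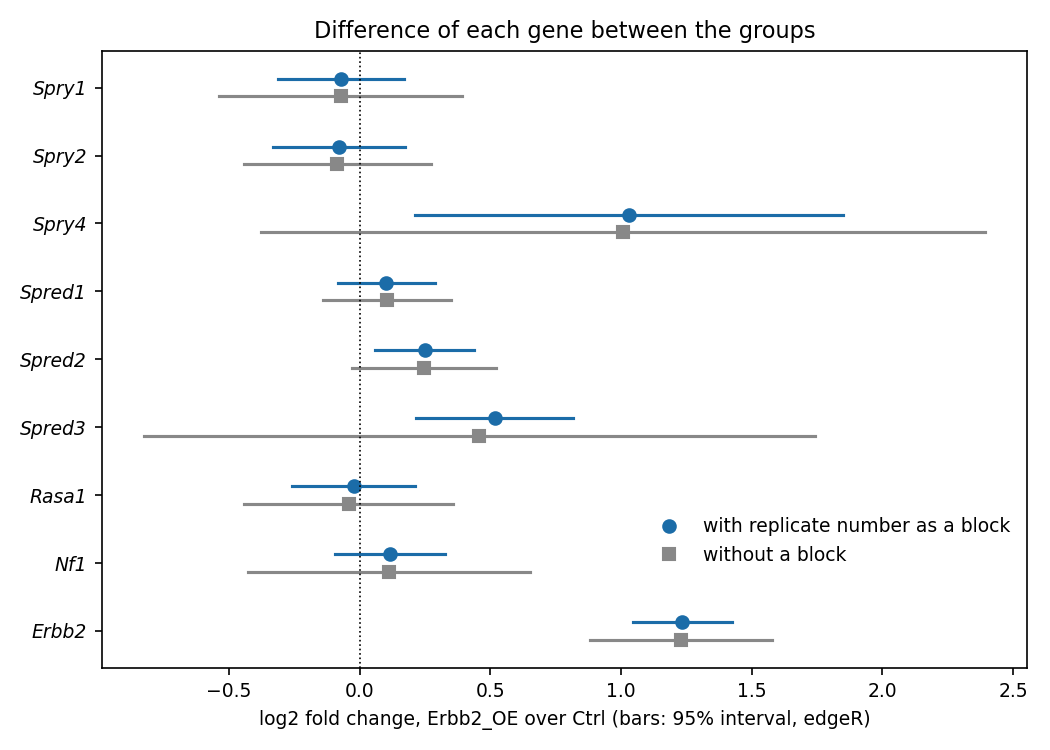
Log2 fold change, overexpressing over control, of the 8 genes and Erbb2 in edgeR's fits with the block (blue circles) and without it (grey squares); bars are 95% intervals. The Spry4, Spred2 and Spred3 intervals exclude 0 with the block and include it without, while those of Spry1, Spry2, Spred1, Rasa1 and Nf1 include 0 in both fits.

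The GTPase-activating protein genes passed in neither fit. Rasa1 was at 57.4, 65.1 and 58.7 CPM in overexpressing organoids, against 68.8, 70.6 and 47.2 CPM in controls, and its pairs went both ways. Its log2 fold change was -0.04 with an interval of -0.44 to 0.36, or -0.26 to 0.21 with the block. Nf1 was at 40.2, 43.7 and 28.6 CPM in overexpressing organoids, against 39.4, 39.5 and 25.3 CPM in controls. Each overexpressing library of Nf1 was slightly above its pair, and both replicate 3 libraries were lowest. Its log2 fold change was 0.11 with an interval of -0.43 to 0.65, or -0.09 to 0.32 with the block.

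As a group, 0 of the 8 genes passed without the block, where 0% of all genes did, and 0 of 8 passed with the block, where 3.09% did. At an unadjusted p under 0.05, 0 of 8 stood out without the block, against 3.33% of all genes, and 3 of 8 with it, against 16.9%. Those 3, Spry4, Spred2 and Spred3, were all higher, against 9.64% of all genes that were higher at this level. DESeq2 called 0 of 8 without the block and 1 of 8 with it, and limma voom 0 of 8 in either fit. All 3 pairs were higher for 5 of 8 genes (Spry4, Spred1, Spred2, Spred3 and Nf1), against 19.6% of all genes, and lower for 0 of 8, against 19.2%. The groups did not overlap for 0 of 8, against 8.75% of all genes, or 4.27% with the overexpressing organoids higher. The median log2 fold change of the 8 was 0.11 with the block, beside -0.01 over all genes tested.

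How the spread of log2 CPM over the 6 libraries divided between replicate number and group differed among the 8. Differences between replicate numbers held 94.7% of it for Nf1, 89.8% for Spry1, 83.3% for Spred3 and 76.7% for Spry2. The group held the largest part only for Spred2, at 60.1%, Spry4, at 44.6%, and Spred1, at 34.2%. For Spred1 the 3 parts were nearly equal. The medians over all genes tested were 64.6% for replicate number and 10.4% for group.

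**Figure D4:**
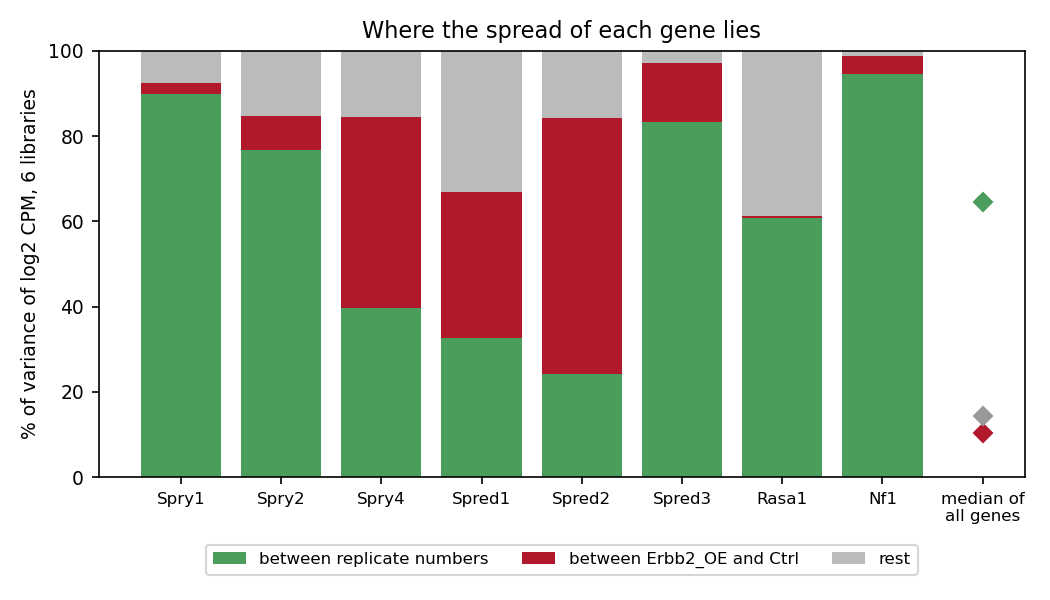
Share of the variance of log2 CPM over the 6 libraries that lies between replicate numbers (green), between the groups (red) and in the rest (grey), as stacked bars for each gene; diamonds are the medians over all genes tested, in the same colours. The group part is largest for Spred2, at 60.1%, and smallest for Rasa1, at 0.327%.

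Across the 6 libraries Spry1 and Spry2 ran in parallel (Pearson r = 0.93 of log2 CPM), and Spry4 ran with Spred2 (r = 0.96) and Spred3 (r = 0.87). Spry1 and Spred3 ran in opposite directions (r = -0.84). These values describe 6 libraries that fall apart by replicate number and share their depth and scaling. Among 10875 genes that averaged 1 or more on the log2 CPM scale, the pattern most like Spry4 was that of St8sia6 (r = 0.998), then Tmem173 (r = 0.993). Spred2 was nearest to Prpf8 and Adamts9 (r = 0.993 each), and Spred3 to Atp10a (r = 0.997) and Krt80 (r = 0.996). Spry1 was nearest to Vsig10l (r = 0.992) and Sprr3 (r = 0.988), and Spry2 to Rhot1 (r = 0.992) and Smad2 (r = 0.988). The nearest to Spred1 were Hivep1 (r = 0.981) and Aida (r = 0.971), to Rasa1 Acad9 (r = 0.997) and Tmem167b (r = 0.993), and to Nf1 Dcaf10 and Akap13 (r = 0.998 each).

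The surrounding pathway was described through 79 genes in 9 lists, of which 70 were tested. The lists were written with earlier results of these data known, so counts over them are a description only. Among them 4 rose and 0 fell with the block, where 2.37% of all genes rose and 0.723% fell, and 0 passed without it. Of 12 ERK feedback and target genes, 3 rose: the ephrin receptor gene Epha4, the MAPK phosphatase gene Dusp4 and the cyclin gene Ccnd1. Their blocked log2 fold changes were 0.70, 0.65 and 0.49 (edgeR, adjusted p = 0.00677, 0.00809 and 0.0135), and none of the 3 passed without replicate 2. Epha4 was at 31.4, 31.6 and 42.3 CPM in overexpressing organoids, against 20.8, 16.4 and 28.1 CPM in controls. Dusp4 was at 38.6, 38.8 and 35.9 CPM in overexpressing organoids, against 24.0, 21.8 and 26.1 CPM in controls. The groups did not overlap for either gene, whereas those of Ccnd1 did. All 12 had a blocked log2 fold change above 0, with a median of 0.37, against 6095 of 12593 genes tested above 0. Of the 12, 9 were higher in 3 of 3 pairs, against 19.6% of all genes. Dusp4 also passed without the block in DESeq2 (adjusted p = 0.00534).

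Of 7 tested growth factor receptors, 1 rose with the block. This was Fgfr4, a receptor for fibroblast growth factors, at 14.3, 7.98 and 47.5 CPM in overexpressing organoids, against 7.83, 2.48 and 28.4 CPM in controls. Like Spred3 and Spry4 it was highest in both replicate 3 libraries and lowest in control replicate 2, and its groups overlapped. In edgeR with the block it had a log2 fold change of 0.93 (standard error 0.16, adjusted p = 0.00979), and it passed in each of the 3 blocked fits that left out a pair. Without the block it was 0.84 (adjusted p = 0.9997), and -0.22 when overexpressing replicate 3 was left out. Egfr, the partner receptor of ERBB2, was at 74.4, 66.5 and 77.8 CPM in overexpressing organoids, against 49.4, 28.6 and 63.5 CPM in controls. Its groups did not overlap, and its blocked log2 fold change of 0.68 missed the threshold in edgeR (adjusted p = 0.0808). Egfr passed with the block in DESeq2 (adjusted p = 0.000545), in limma voom (adjusted p = 0.0323) and in edgeR without replicate 3 (adjusted p = 4.93e-09), and not without replicate 1 (adjusted p = 0.341) or replicate 2 (adjusted p = 0.138). Of the 7 receptors, 3 had a blocked log2 fold change above 0 and 4 below.

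No gene of the other 6 lists passed in either edgeR fit. Of 6 RAS GTPases, 0 passed with the block, with 3 above 0 and 3 below, and those with the smallest p were Rras at 0.25 and Mras at -0.30 on the log2 scale (edgeR with the block, adjusted p = 0.223 and 0.230). Of 6 tested exchange factors, which load RAS with GTP, 0 passed and 4 were above 0 and 2 below, with Rasgrf2 at 0.85 and Rasgrf1 at -0.78 (adjusted p = 0.235 and 0.375). Both had few reads, and Rasgrf1 was at no more than 2.32 CPM in any library. Of 7 other tested RAS GTPase-activating proteins, 0 passed, and 7 of 7 had a log2 fold change above 0 and 0 below. Rasal1 was at 2.53, 1.25 and 0.333 CPM in overexpressing organoids, against 0.510, 0 and 0.301 CPM in controls, with a log2 fold change of 2.20 (adjusted p = 0.0965). Rasa4 was at 1.53, 0.453 and 2.75 CPM in overexpressing organoids, against 0.695, 0.451 and 0.516 CPM in controls, with a log2 fold change of 1.55 (adjusted p = 0.118). For each of these 2 genes, 1 overexpressing library lay below the highest control.

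Of 11 receptor adaptors, 0 passed and 4 were above 0 and 7 below, with Frs3 at 0.63 and Cbl, the ubiquitin ligase that Sprouty proteins bind, at 0.16 on the log2 scale (edgeR with the block, adjusted p = 0.406 and 0.408). Of 10 tested RAF, MEK and ERK kinases and scaffolds, 0 passed, with 6 above 0 and 4 below. Ksr1 encodes a scaffold that gathers RAF, MEK and ERK. Its groups did not overlap, nor did those of Frs3 and Rasgrf2, against 8.75% of all genes. Ksr1 had a log2 fold change of 0.47 (edgeR with the block, adjusted p = 0.128). Map2k1, which encodes MEK1, had one of 0.21 (adjusted p = 0.243). Of 11 partners and modifiers of Sprouty and Spred proteins, 0 passed and 3 were above 0 and 8 below, with the ubiquitin ligase gene Siah2 at 0.31 and the caveolin gene Cav1 at 0.41 (adjusted p = 0.360 and 0.383). The 8 list genes below the filter on low counts, among them Fgfr1, Kdr, Pdgfra and Pdgfrb, reached at most 0.676 CPM in any library. Spry3, the remaining Sprouty gene, was not analysed here.

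**Figure D5:**
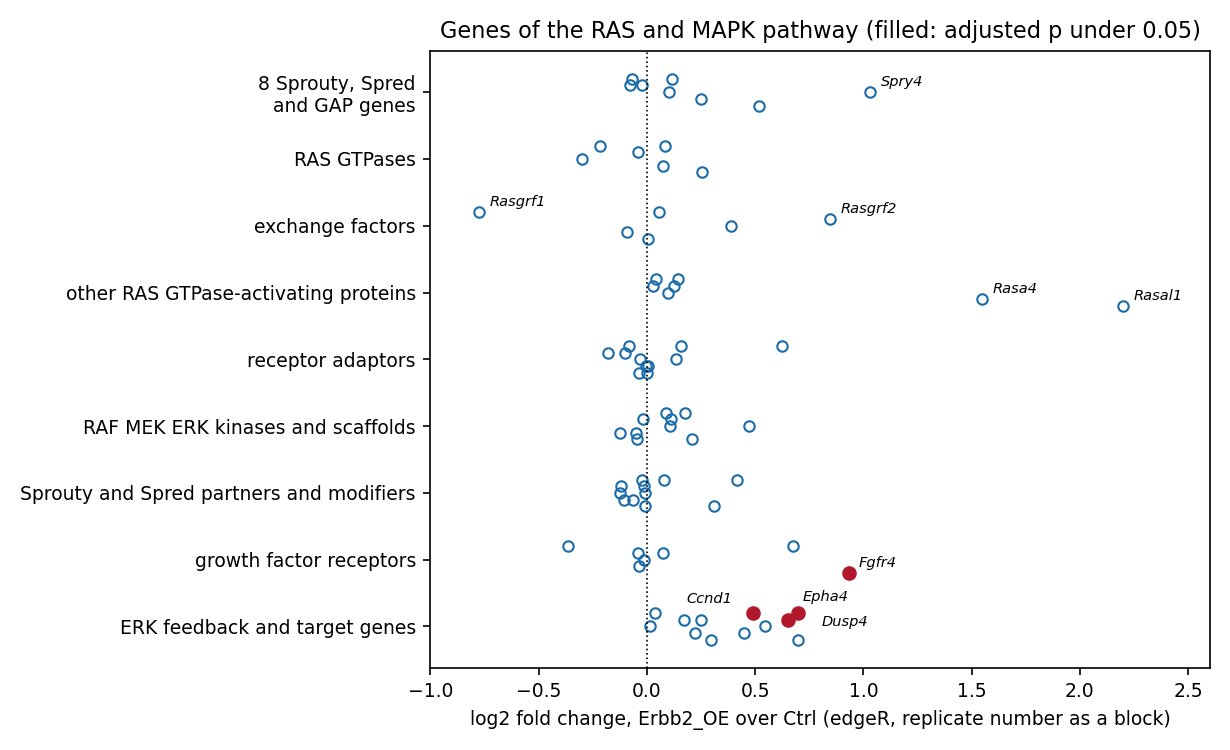
Log2 fold change, overexpressing over control, from the edgeR fit with the block, for the 8 inhibitors and the tested genes of 8 pathway lists; filled red points passed an adjusted p of 0.05. The ERK feedback and target genes all lie right of 0, with a median of 0.37, and Fgfr4, Epha4, Dusp4 and Ccnd1 are the only filled points.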

How the data were processed

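Polyadenylated RNA of 6 organoid libraries was sequenced. The deposited tables hold raw read counts per Ensembl gene, per the file headers. The submitters' processing notes name STAR, featureCounts and GRCm39, without versions, annotation or strand setting. Reads from overlapping genes on opposite strands may therefore be mixed or left uncounted. Symbols were matched by Ensembl ID for 25424 of 25528 genes. The reference annotation was of GRCm38, so that it served for names, exon lengths and promoter windows, whose coordinates are on GRCm38.p6.

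Counts were tested in edgeR 4.0.16 (R 4.3.3) with filterByExpr at a minimum count of 10, TMM scaling, the two-sided robust quasi-likelihood F test and Benjamini-Hochberg adjustment over 12593 genes. Standard errors were taken from each log2 fold change and its F value, and 95% intervals use the test's degrees of freedom. The planned design had the group alone. With the replicate number as a block, each number's libraries are compared as pairs. Deviations from group means correlated at 0.333, 0.660 and 0.707 for numbers 1, 2 and 3, and at -0.657 to 0.128 between unlike numbers. These values depend on one another, since each group's deviations sum to 0. The numbers were taken as pairs from the data, and both fits are given. No libraries were identical. Without the block, p-values measure the spread between libraries of a group, and with it the spread left within pairs. Either may be technical. Log2 CPM used a prior count of 2. The steps were run on counts simulated from the kind of model that edgeR assumes. That check was of recovered fold changes and not of the rate of false calls.

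The 8 genes, the pathway lists and the rule for naming genes (every list gene past the threshold with the block, the 2 with the smallest p in each list, and the genes most like each inhibitor by r, 2 for each) were chosen with earlier results of these data known. Alternatives were other scalings, DESeq2 1.42.0, limma voom 3.58.1, other filters, the earlier form of the fit, removal of mitochondrial genes and Erbb2, and each library or pair left out. The values of 1 immune marker are not reported here.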

Additional observations from a re-analysis of the deposited data

How the results depend on the processing

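Without a block, edgeR called 0 genes, with 419 at an unadjusted p under 0.05, and limma voom 0; DESeq2 called 34 genes, among them 0 of the 8 inhibitors and 1 pathway gene, Dusp4. With the replicate block edgeR called 389 genes, and the same number with mitochondrial genes and Erbb2 removed. It called 395 with RLE scaling, 380 with upper-quartile scaling, 418 without scaling factors, 405 with the earlier form of the fit, 345 with no filter and 388 with at least 1 CPM in 3 libraries, against 466 in blocked DESeq2 and 376 in blocked limma voom. Pathway genes called with the block numbered 4, or 5 with upper-quartile scaling or the earlier form (Epha2 added) or limma voom (Egfr added), and 8 in DESeq2 (Egfr, Epha2, Etv4 and Fosl1 added). Of the 8 inhibitors, 1, Spred3, was called in blocked DESeq2 and in the earlier form of the blocked fit. Over 9 fits that each left out a library or a pair, the genes called ranged from 0 to 1089, the inhibitors called from 0 to 3 and the pathway genes called from 0 to 15, each highest in the blocked fit without replicate 3; the blocked fits without replicate 1 and replicate 2 called 213 and 145 genes. Without control replicate 3 and without a block, 1 gene was called, Mgam2-ps, named after its value was seen.

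In those 9 fits the log2 fold change of Spry1 ranged from -0.21 to 0.068, Spry2 from -0.19 to 0.0083, Rasa1 from -0.20 to 0.098, Nf1 from -0.072 to 0.27, Cbl from -0.029 to 0.35, Cav1 from -0.20 to 1.31 and Fgfr4 from -0.22 to 2.17, so that each changed sign in some of them; the cause was not tested. Among the changed signs, blocked fits without replicate 2 gave 0.015 for Spry1 and 0.035 for Rasa1, and the fit without control replicate 2 gave 0.056 for Rasa1. Those of Spry4 (0.62 to 2.10), Spred1 (0.04 to 0.15), Spred2 (0.18 to 0.35) and Spred3 (0.06 to 1.07) stayed above 0. Of the 16 most similar genes, 10 remained with upper-quartile scaling and 4 without scaling factors. Depth limits Spry4, with 7 counts in its lowest library.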
